A study of Mus musculus with 12 samples.

Results

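The genes described here are 34 genes of sterol and fatty acid synthesis, their transcription factors and the pumps that remove sterol from the cell. They were given as a list of symbols, and each symbol was matched exactly to the first column of the gene count tables of all 12 libraries. All 34 were found, among 26608 genes listed. The matching used no expression values, but the list was chosen with earlier results of these data known. They fall into 8 enzymes of the mevalonate and isoprenoid steps (Acat2, Hmgcs1, Mvk, Pmvk, Mvd, Idi1, Fdps and Ggps1), 10 enzymes of the squalene and sterol ring steps (Fdft1, Sqle, Lss, Cyp51, Tm7sf2, Nsdhl, Hsd17b7, Ebp, Sc5d and Dhcr7), 6 genes of SREBP control and sterol transfer (Srebf1, Srebf2, Insig1, Insig2, Scap and Stard4), 8 genes of fatty acid synthesis (Acly, Acaca, Fasn, Scd1, Scd2, Elovl1, Elovl5 and Elovl6) and 2 genes of sterol efflux (Abca1 and Abcg1). All 34 passed the filter of a sum of 10 or more reads in the 4 libraries of any condition, Scd1 through a few libraries only.

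RNA was sequenced from sorted CD4+ YFP(FOXP3)- T cells of mice 14 weeks old, with spleen pooled with cervical and inguinal lymph nodes. The 12 libraries were 4 of Foxp3Cre WT mice (WT), 4 of Foxp3-Cre Tet2/3fl/fl mice classed as DKO-moderate and 4 of Foxp3-Cre Tet2/3fl/fl mice classed as DKO-severe. Every mouse carried Foxp3-Cre, a fusion of YFP and Cre made from the Foxp3 gene. In the Tet2/3fl/fl mice, Tet2 and Tet3, which encode DNA dioxygenases, are thus deleted mainly in cells that express or once expressed Foxp3. Leaky Cre activity in other cells is known for this allele. The YFP- gate takes conventional CD4+ T cells and cells that lost Foxp3 together, and the share of cells with either gene deleted was not measured here. The 2 DKO groups share 1 genotype and were told apart by the number of cells in spleen and lymph nodes, so a difference between them is one between mice with more and less disease. Libraries were taken as 1 mouse each, and both comparisons against WT use the same 4 WT libraries.

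Cholesterol is built from acetyl-CoA through mevalonate, isoprenoid diphosphates, squalene and lanosterol. When sterol in the endoplasmic reticulum is low, SCAP carries the precursors of the SREBP transcription factors to the Golgi, where they are cleaved and released to switch on these enzymes, and INSIG proteins hold SCAP back when sterol is plentiful. SREBP2, from Srebf2, acts mainly on sterol genes and SREBP1, from Srebf1, mainly on fatty acid genes, while sterol excess is sensed by the liver X receptors, which switch on the efflux pumps ABCA1 and ABCG1. T cells that begin to divide are known to raise both programs to build membrane.

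Depth was 29254260 to 42133536 reads assigned to genes per library. The 8 T cell markers had reads in every library, at a summed level of 4886 to 5422 CPM (reads of a gene over the library's reads on genes, scaled by edgeR's TMM factors) in WT, 5211 to 5741 in DKO-moderate and 4201 to 4820 in DKO-severe. Tet3 averaged 195 ± 19.6 CPM (SD, n = 4) in WT, 138 ± 45.5 CPM in DKO-moderate and 96.0 ± 6.37 CPM in DKO-severe, and Tet2 52.0 ± 8.05, 50.3 ± 10.5 and 60.7 ± 4.47 CPM. Reads summed over a whole gene do not check the deletion of single exons. The libraries also differed in marker genes: 10 proliferation markers summed to 94.3 to 167 CPM in WT, 268 to 464 in DKO-moderate and 561 to 1453 in DKO-severe, and 7 naive T cell markers to 4399 to 5101, 2463 to 3925 and 1655 to 2231 CPM. The 4 Y-linked markers summed to at most 0.571 CPM in WT 2, DKO-moderate 2, DKO-moderate 4 and DKO-severe 3. They summed to 370 to 556 CPM in the other libraries, so by these markers each group mixed the sexes. Markers of other cells were uneven. The 10 B cell markers summed to 249.4 CPM in WT 3 against 6.81 to 15.2 in the other WT libraries, and the 12 neutrophil markers to 2275 and 839 CPM in DKO-severe 1 and 2 against at most 24.6 in the other 10 libraries. In bulk RNA of this kind, fewer cells of a type and less RNA per cell cannot be told apart.

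The first question was which of the 34 genes differed between DKO-severe and WT cells. Many sterol genes were lower, among them Srebf2, and 3 of the 8 fatty acid genes were higher. At an adjusted p under 0.05 in edgeR's quasi-likelihood test, 16 of the 34 genes were lower in DKO-severe than in WT, 6 were higher and 12 did not pass. Among all 16035 genes tested, 52.6% passed in this comparison, 25.9% lower and 26.6% higher, so the lower share of the 34 (47.1%) was above that of all genes and the higher share (17.6%) below it. The median log2 fold change was -0.30 over the 34 genes and -0.005 over all genes tested. Higher calls were 50.7% of all calls with the normalization used (trimmed mean of M values, TMM), 57.8% with DESeq2 size factors and 66.5% with library size alone. Library size alone moved the median of all genes to 0.178 and left 16 of the 34 genes past the threshold. With it 8216 of all 16035 genes passed, 2756 lower and 5460 higher. The share of the 34 in both directions together was thus not above that of all genes. Their lower share alone was not counted at this scaling, where Mvk, Mvd, Fdps, Sqle, Srebf2 and Insig1 still passed as lower. Of the 18 enzymes from Acat2 to Dhcr7, 11 were lower (Acat2, Hmgcs1, Mvk, Mvd, Idi1, Fdps, Sqle, Lss, Cyp51, Tm7sf2 and Sc5d) and only Ebp, which moves a double bond within the sterol ring, was higher. Summed over these 18 enzymes, the level was 538 ± 37.7 CPM in WT, 487 ± 26.2 CPM in DKO-moderate and 429 ± 20.8 CPM in DKO-severe (SD, n = 4), and the highest DKO-severe library, at 458 CPM, lay below the lowest WT library, at 503 CPM.

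**Figure D1:**
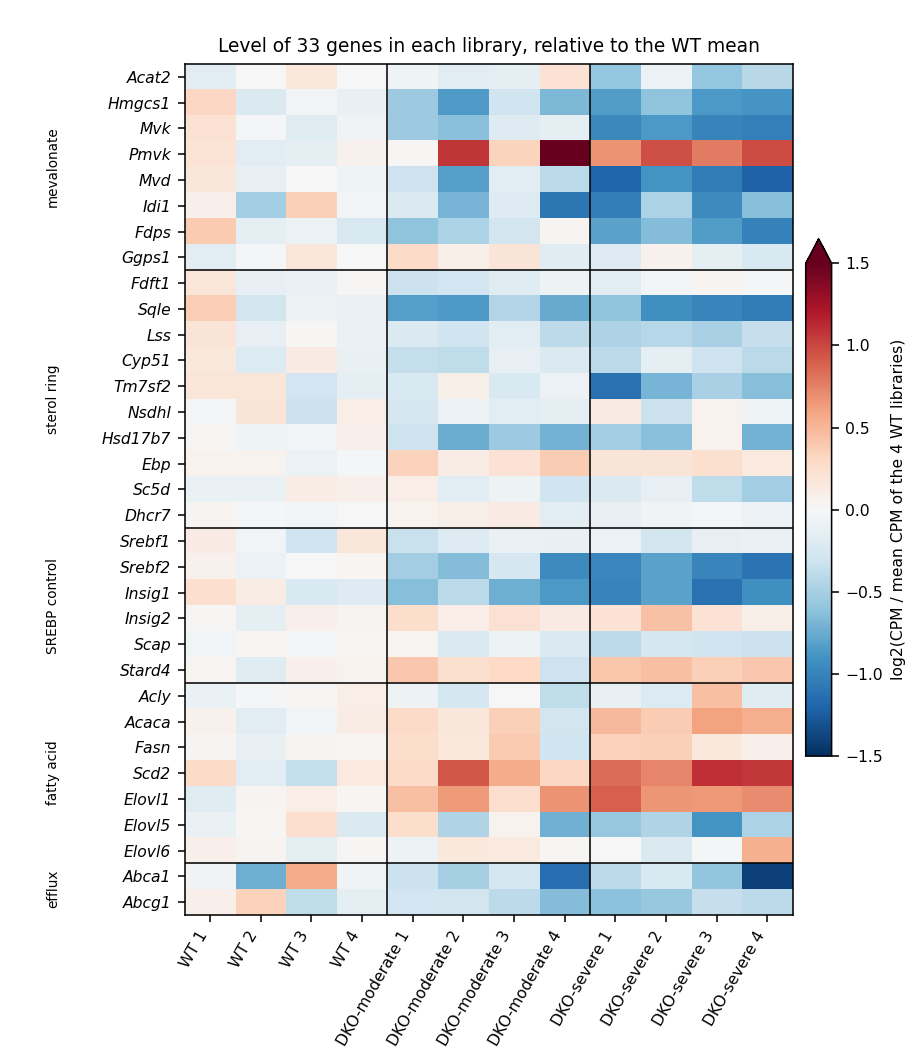
Level of 33 of the 34 genes (rows, grouped by role) in each of the 12 libraries (columns), as the log2 ratio of CPM to the mean of the 4 WT libraries, with red for higher and blue for lower. Scd1 is left out because 3 of the WT libraries had at most 1 Scd1 read each, and the arrow on the scale stands for values over 1.5. Most sterol rows darken to blue from WT to DKO-severe, Scd2 and Elovl1 turn red, and Pmvk is red in DKO-moderate 2 and 4 and in DKO-severe.

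Of the 8 mevalonate enzymes, 6 were lower in DKO-severe than in WT, with a median log2 fold change of -0.78 over the 8. Mvd, which decarboxylates mevalonate diphosphate (chromosome 8, 122433601 to 122443422, GRCm38), was at 23.4, 19.2, 21.0 and 20.1 CPM in WT 1 to 4, 16.9, 11.8, 18.8 and 15.8 CPM in DKO-moderate 1 to 4 and 9.18, 11.2, 10.1 and 9.02 CPM in DKO-severe 1 to 4. All DKO-severe libraries lay below all DKO-moderate libraries, and these below all WT libraries. In DKO-severe, Mvd stood at 47.2% of WT (log2 fold change -1.08 ± 0.15 SE, edgeR adjusted p = 9.11e-05). It also fell from DKO-moderate to DKO-severe (log2 fold change -0.68 ± 0.14, edgeR adjusted p = 0.00918), while DKO-moderate against WT did not pass (log2 fold change -0.40 ± 0.14, edgeR adjusted p = 0.0761).

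Mvk, mevalonate kinase (chromosome 5, 114444269 to 114460591), was at 16.8, 14.1, 12.6 and 13.8 CPM in WT 1 to 4, 9.81, 9.30, 12.5 and 13.1 CPM in DKO-moderate 1 to 4 and 7.33, 7.91, 7.14 and 7.04 CPM in DKO-severe 1 to 4. The DKO-severe values were the 4 lowest of the 12, and DKO-moderate and WT overlapped. Mvk in DKO-severe was 51.4% of WT (log2 fold change -0.96 ± 0.15, edgeR adjusted p = 0.000223) and 65.9% of DKO-moderate (log2 fold change -0.60 ± 0.15, edgeR adjusted p = 0.0158), the latter not passing without DKO-moderate 3, DKO-severe 3 or DKO-severe 4 (log2 fold changes of -0.54). Pmvk, phosphomevalonate kinase, is the next enzyme of the pathway. It was at 16.8, 13.1, 13.1 and 15.1 CPM in WT 1 to 4, 14.7, 30.5, 18.3 and 58.5 CPM in DKO-moderate 1 to 4 and 23.2, 28.4, 25.0 and 28.6 CPM in DKO-severe 1 to 4. DKO-moderate 4 was the highest library, DKO-moderate 1 lay within the WT range, and all DKO-severe libraries lay above all WT libraries. DKO-moderate 2 and 4, the highest of their group, had almost no Y-linked reads. WT 2 and DKO-severe 3, also with almost none, were not the highest of theirs. The part of sex in Pmvk was not tested. Pmvk passed only in DKO-moderate against WT (log2 fold change 1.07 ± 0.34, edgeR adjusted p = 0.0489), while the DKO-severe log2 fold change against WT, 0.85 ± 0.34, did not (edgeR adjusted p = 0.0502). The DKO-moderate call was lost in 10 of the 12 fits that left out 1 library, with log2 fold changes of 0.54 to 1.30.

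Hmgcs1, the cytosolic synthase that makes HMG-CoA (chromosome 13, 119690379 to 119708260), had a mean of 66.1 ± 10.9 CPM in WT, 44.3 ± 7.27 CPM in DKO-moderate and 38.2 ± 3.47 CPM in DKO-severe (SD, n = 4). Both DKO groups lay wholly below WT and overlapped each other. Its log2 fold change was -0.79 ± 0.14 in DKO-severe against WT (edgeR adjusted p = 0.000475) and -0.58 ± 0.14 in DKO-moderate against WT (edgeR adjusted p = 0.013). Fdps, farnesyl diphosphate synthase, was 56.5% of WT in DKO-severe (edgeR adjusted p = 0.00128) and 69.9% of DKO-moderate (edgeR adjusted p = 0.0424), the latter call being lost in 8 of the 12 fits without 1 library. Its exons share 1124 bases with Gm43738 on the same strand, a gene without counts here, so its reads are uncertain. Idi1, which interconverts the 5-carbon isoprenoid units, was 59.1% of WT in DKO-severe (edgeR adjusted p = 0.0207) with overlapping libraries, and did not pass without WT 3, DKO-severe 1 or DKO-severe 3. Acat2, the cytosolic thiolase of the first step, was 75.6% of WT in DKO-severe (edgeR adjusted p = 0.0219, not past without WT 3 or without DKO-severe 1, 3 or 4), and since it has a close copy, Acat3, and the authors kept reads with a single position only, its count is uncertain. Ggps1, which makes geranylgeranyl diphosphate for protein prenylation, passed in no comparison (40.6 to 51.7 CPM in WT and 39.0 to 48.0 CPM in DKO-severe).

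The upstream sequences of 3 of these genes are shown because all 3 transcripts were lower in DKO-severe and the windows hold motifs that sterol genes are known to carry. In RefSeq's windows on GRCm38.p6, 250 bases before to 50 after each annotated start, 2 motifs were searched on both strands: the core of the sterol regulatory element, TCACNCCAC, to which SREBP binds, and the CCAAT box, bound by NF-Y, which reads ATTGG on the other strand. Of the 34 genes, 27 had a window, 36 windows in all. The sterol element core was found in 1 of the 36 windows (2.78%), against 408 of all 32851 windows (1.24%), and the CCAAT box in 23 of 36 (63.9%), against 12289 of all windows (37.4%). The single sterol element match was that of Hmgcs1, with its first base 137 bases before the start. A match is a likeness of letters only, and no match in this window says nothing of binding. The bases before the start are printed 5′ to 3′ on the strand of the gene, without bases in annotated exons, and capitals mark the matches: chr13:119690101-119690350 on the plus strand for Hmgcs1, with TCACCCCAC once and ATTGG 3 times, chr8:122443423-122443672 on the minus strand for Mvd, with ATTGG once and CCAAT once, and chr5:114444061-114444268 on the plus strand for Mvk, with ATTGG 4 times and CCAAT once.
Hmgcs1: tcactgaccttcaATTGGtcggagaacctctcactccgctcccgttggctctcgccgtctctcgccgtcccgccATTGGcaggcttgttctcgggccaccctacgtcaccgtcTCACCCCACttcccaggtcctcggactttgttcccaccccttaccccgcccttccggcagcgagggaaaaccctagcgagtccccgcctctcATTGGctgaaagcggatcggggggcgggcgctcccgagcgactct
Mvd: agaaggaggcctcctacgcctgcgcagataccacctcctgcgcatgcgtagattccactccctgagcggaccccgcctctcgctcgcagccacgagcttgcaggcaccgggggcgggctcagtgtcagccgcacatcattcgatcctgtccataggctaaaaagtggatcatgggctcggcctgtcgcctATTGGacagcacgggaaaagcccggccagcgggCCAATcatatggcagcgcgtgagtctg
Mvk: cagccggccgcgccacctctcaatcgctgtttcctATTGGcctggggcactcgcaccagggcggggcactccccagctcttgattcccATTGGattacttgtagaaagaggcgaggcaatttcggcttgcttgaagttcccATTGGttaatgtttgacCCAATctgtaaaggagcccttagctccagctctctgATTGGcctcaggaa

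Of the 10 enzymes of the squalene and sterol ring steps, 5 were lower in DKO-severe than in WT, Ebp was higher and 4 did not pass. Sqle, squalene epoxidase, a rate-limiting enzyme of the branch (chromosome 15, 59315077 to 59331192), was at 39.4, 25.4, 29.2 and 28.5 CPM in WT 1 to 4, 17.3, 16.8, 22.6 and 18.1 CPM in DKO-moderate 1 to 4 and 20.1, 16.1, 15.4 and 14.8 CPM in DKO-severe 1 to 4. Every DKO library lay below every WT library, and the DKO groups overlapped. Sqle was 54.2% of WT in DKO-severe (log2 fold change -0.88 ± 0.16, edgeR adjusted p = 0.000588) and 61.1% of WT in DKO-moderate (log2 fold change -0.71 ± 0.16, edgeR adjusted p = 0.00927). The difference between the DKO groups did not pass (log2 fold change -0.17, 95% interval -0.51 to 0.17, edgeR adjusted p = 0.443).

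Tm7sf2, a reductase of the sterol ring, was a low transcript at 10.5, 10.5, 7.62 and 8.50 CPM in WT 1 to 4, 7.95, 9.90, 7.95 and 8.77 CPM in DKO-moderate 1 to 4 and 4.28, 5.75, 6.64 and 5.96 CPM in DKO-severe 1 to 4. The DKO-severe values were the 4 lowest, and WT and DKO-moderate overlapped. It was 60.9% of WT in DKO-severe (edgeR adjusted p = 0.00494) and 65.6% of DKO-moderate (edgeR adjusted p = 0.0304, lost in 7 of the 12 fits without 1 library). Its exons share 532 bases with Vps51 on the same strand, so its reads are uncertain. Lss, lanosterol synthase, was at 24.6, 19.8, 21.7 and 20.1 CPM in WT 1 to 4, 18.6, 17.5, 19.2 and 16.4 CPM in DKO-moderate 1 to 4 and 15.6, 16.0, 15.4 and 16.9 CPM in DKO-severe 1 to 4. Both DKO groups lay below WT, and only DKO-severe against WT passed (74.2% of WT, log2 fold change -0.43 ± 0.10, edgeR adjusted p = 0.00344).

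Cyp51, the lanosterol demethylase, was 80.8% of WT in DKO-severe (edgeR adjusted p = 0.0262), and Sc5d, a sterol desaturase, 81.2% (edgeR adjusted p = 0.0379). Ebp was 114% of WT in DKO-severe (edgeR adjusted p = 0.0475) and 121% in DKO-moderate (edgeR adjusted p = 0.0284), its libraries at 36.9 to 40.7 CPM in WT, 42.5 to 51.3 CPM in DKO-moderate and 43.5 to 46.3 CPM in DKO-severe. Hsd17b7, a ketoreductase of sterol demethylation, passed in DKO-moderate against WT only (67.5% of WT, edgeR adjusted p = 0.0441). Each of these 5 calls was lost in 4 to 8 of the 12 fits without 1 library. Fdft1 (squalene synthase), Nsdhl (a dehydrogenase of sterol demethylation) and Dhcr7 (the reductase of the last step) passed in no comparison, with DKO-severe log2 fold changes against WT of -0.04, -0.04 and -0.07 and 95% intervals of -0.25 to 0.16, -0.33 to 0.24 and -0.23 to 0.10.

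**Figure D2:**
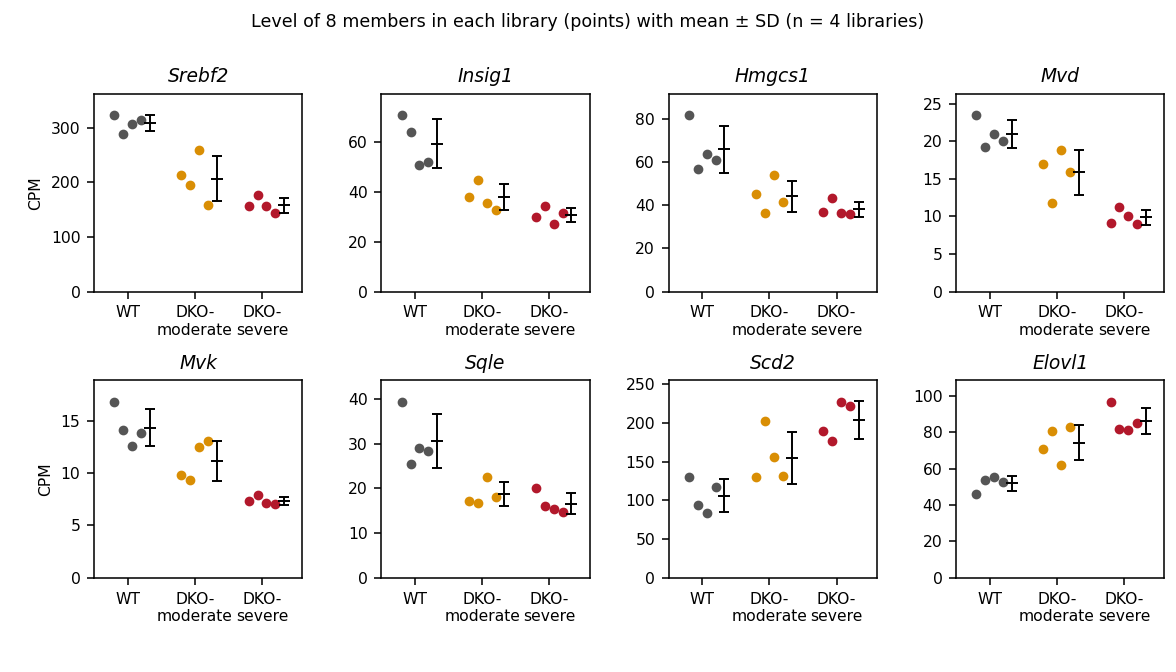
CPM of 8 genes in each library (points) with the mean and SD of the 4 libraries of a group (black), on axes that start at 0. Srebf2, Insig1, Hmgcs1, Mvd, Mvk and Sqle in DKO-severe lie wholly below WT, and Scd2 and Elovl1 in DKO-severe lie wholly above it.

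Among the 6 genes of SREBP control, Srebf2 and Insig1 were lower in both DKO groups. Srebf2, which encodes SREBP2 (chromosome 15, 82147181 to 82205379), was at 323, 289, 307 and 315 CPM in WT 1 to 4, 214, 196, 259 and 159 CPM in DKO-moderate 1 to 4 and 157, 176, 156 and 143 CPM in DKO-severe 1 to 4. All DKO libraries lay below all WT libraries, and DKO-moderate 4 lay within the DKO-severe range. Srebf2 was 51.2% of WT in DKO-severe (log2 fold change -0.97 ± 0.13, edgeR adjusted p = 8.04e-05) and 67.1% of WT in DKO-moderate (log2 fold change -0.58 ± 0.13, edgeR adjusted p = 0.00944). DKO-severe against DKO-moderate was near the threshold (76.3% of DKO-moderate, edgeR adjusted p = 0.0477) and was lost in 11 of the 12 fits without 1 library. With WT 3, DKO-severe 1 and DKO-severe 2 left out, the log2 fold change of Srebf2 in DKO-severe was -1.04 (edgeR adjusted p = 0.00199). The upstream bases of Srebf2, at chr15:82147019-82147180 on the plus strand, without annotated exons, hold the CCAAT box once, as ATTGG in capitals, and no exact sterol element core.
Srebf2: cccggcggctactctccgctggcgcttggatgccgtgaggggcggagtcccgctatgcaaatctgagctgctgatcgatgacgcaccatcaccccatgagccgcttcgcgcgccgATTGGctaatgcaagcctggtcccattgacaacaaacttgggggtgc

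Insig1, which retains SCAP and is itself a target of SREBP (chromosome 5, 28071363 to 28078662), was at 70.8, 64.2, 50.6 and 52.1 CPM in WT 1 to 4, 38.1, 44.9, 35.6 and 32.6 CPM in DKO-moderate 1 to 4 and 29.8, 34.2, 27.3 and 31.5 CPM in DKO-severe 1 to 4. All DKO libraries lay below all WT libraries. Insig1 was 51.6% of WT in DKO-severe (log2 fold change -0.95 ± 0.13, edgeR adjusted p = 0.000106) and 63.6% of WT in DKO-moderate (log2 fold change -0.65 ± 0.13, edgeR adjusted p = 0.00575). Its partner gene Insig2, which is not known as an SREBP target in the same way, was at 20.1, 17.97, 21.0 and 20.6 CPM in WT 1 to 4, 23.8, 21.3, 23.3 and 21.7 CPM in DKO-moderate 1 to 4 and 23.2, 26.9, 23.1 and 21.2 CPM in DKO-severe 1 to 4. Insig2 lay above WT in both DKO groups by a small step that passed in DKO-severe only (119% of WT, edgeR adjusted p = 0.0494) and was lost in 10 of the 12 fits without 1 library.

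Scap, the escort of the SREBP precursors, was at 104, 109.9, 106 and 109 CPM in WT 1 to 4, 109.8, 92.3, 102 and 92.2 CPM in DKO-moderate 1 to 4 and 81.7, 89.5, 87.4 and 86.1 CPM in DKO-severe 1 to 4. DKO-severe lay below both other groups, at 80.3% of WT (log2 fold change -0.32 ± 0.070, edgeR adjusted p = 0.00257), and DKO-moderate overlapped WT. Stard4, which carries sterol through the cytosol, was at 24.6, 21.2, 25.3 and 25.0 CPM in WT 1 to 4, 31.9, 28.5, 29.5 and 19.3 CPM in DKO-moderate 1 to 4 and 32.1, 32.9, 30.9 and 31.7 CPM in DKO-severe 1 to 4. It was higher in DKO-severe, at 133% of WT (edgeR adjusted p = 0.0228, not past without WT 2), with DKO-moderate 4 the lowest library of all. Srebf1, which encodes SREBP1, was at 131, 118, 98.5 and 136 CPM in WT 1 to 4, 96.0, 106, 113 and 112 CPM in DKO-moderate 1 to 4 and 114, 99.8, 111 and 113 CPM in DKO-severe 1 to 4. The 3 groups overlapped, and no comparison passed (DKO-severe log2 fold change against WT -0.14, 95% interval -0.36 to 0.08, edgeR adjusted p = 0.247).

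**Figure D3:**
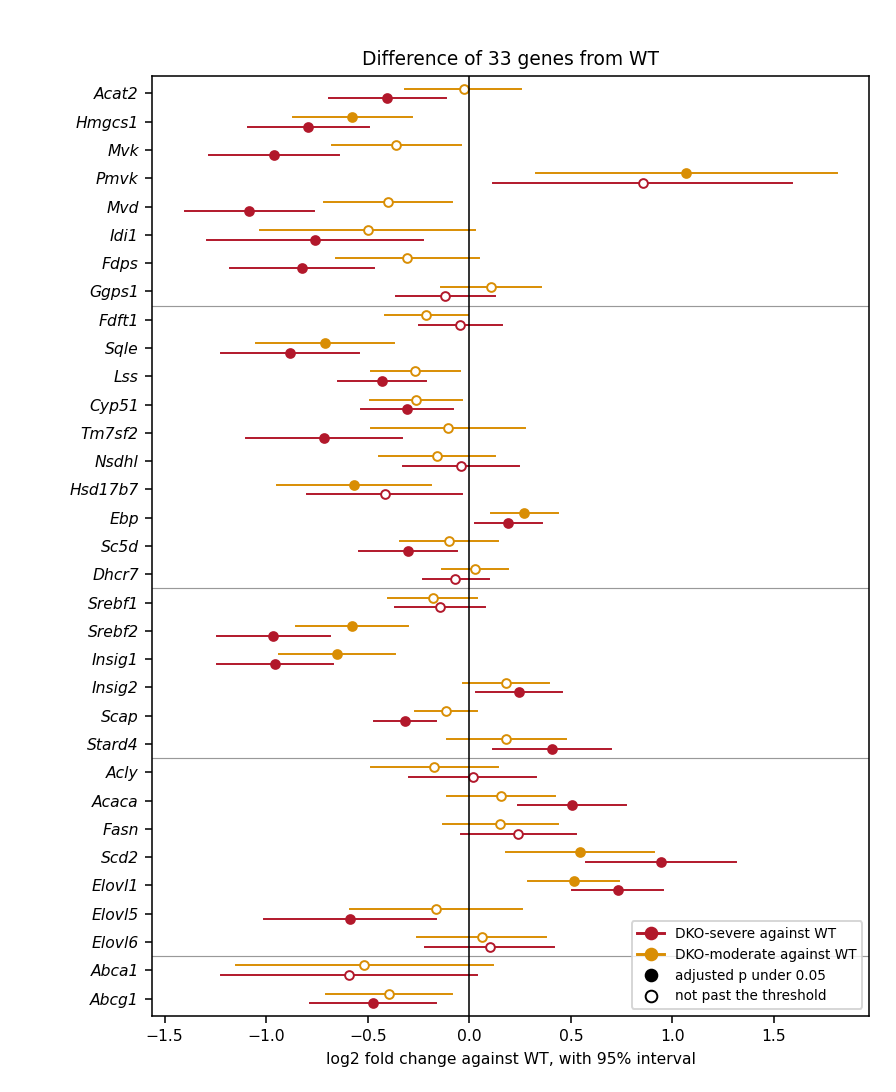
Log2 fold change against WT (points) with its 95% interval (lines) for 33 of the 34 genes in DKO-severe (red) and DKO-moderate (orange), grouped by role from mevalonate enzymes at the top to efflux pumps at the bottom. Filled points passed an adjusted p under 0.05 in edgeR, Scd1 is left out for its wide intervals, and Mvd in DKO-severe, at -1.08, is the lowest point.

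In DKO-severe cells 3 of the 8 fatty acid genes were higher, 1 was lower and 4 did not pass, with a median log2 fold change of 0.37. These shares were 37.5% higher and 12.5% lower, against 26.6% and 25.9% of all genes tested, and rest on 8 genes only. The summed level of the 8 was 951 ± 38.3 CPM in WT, 986 ± 128 CPM in DKO-moderate and 1095 ± 61.6 CPM in DKO-severe (SD, n = 4). Scd2, the stearoyl-CoA desaturase of most tissues outside the liver, was at 130.2, 94.3, 83.2 and 117 CPM in WT 1 to 4, 130.1, 202, 156 and 132 CPM in DKO-moderate 1 to 4 and 190.2, 177, 228 and 222 CPM in DKO-severe 1 to 4. All DKO-severe libraries lay above all WT libraries, and DKO-moderate 1 lay within the WT range. Scd2 was 1.92-fold higher in DKO-severe than in WT (log2 fold change 0.94 ± 0.17, edgeR adjusted p = 0.000645) and 1.46-fold higher in DKO-moderate (edgeR adjusted p = 0.0438, lost in 9 of the 12 fits without 1 library).

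Elovl1, which elongates saturated very long chain fatty acids, was at 45.8, 53.5, 55.5 and 52.8 CPM in WT 1 to 4, 70.8, 80.9, 61.9 and 82.9 CPM in DKO-moderate 1 to 4 and 96.7, 81.9, 81.1 and 84.8 CPM in DKO-severe 1 to 4. Every DKO library lay above every WT library. Elovl1 was 1.66-fold higher in DKO-severe (log2 fold change 0.73 ± 0.10, edgeR adjusted p = 0.000128) and 1.43-fold higher in DKO-moderate (log2 fold change 0.51 ± 0.10, edgeR adjusted p = 0.0058) than in WT.

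Acaca, acetyl-CoA carboxylase, was 1.42-fold higher in DKO-severe than in WT (37.7 to 45.3 CPM in WT and 54.4 to 63.7 CPM in DKO-severe, edgeR adjusted p = 0.00448). Elovl5, which elongates polyunsaturated fatty acids, was 66.6% of WT (edgeR adjusted p = 0.024, not past without WT 3 or without DKO-severe 3). Acly, which makes cytosolic acetyl-CoA from citrate, Fasn, fatty acid synthase, and Elovl6, which elongates palmitate, did not pass in DKO-severe, with log2 fold changes against WT of 0.02, 0.24 and 0.10 and 95% intervals of -0.30 to 0.33, -0.04 to 0.52 and -0.22 to 0.42. All 4 DKO-severe libraries had more Fasn than any WT library (218 to 266 against 191 to 214 CPM).

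Scd1, the other stearoyl-CoA desaturase, was uneven within WT and within DKO-severe. It was at 0, 0.0323, 31.3 and 0.0273 CPM in WT 1 to 4, 0.239, 1.61, 0.174 and 0.212 CPM in DKO-moderate 1 to 4 and 28.6, 44.5, 5.57 and 4.19 CPM in DKO-severe 1 to 4. All 4 DKO-severe libraries lay above all DKO-moderate libraries and above the other 3 WT libraries, which had at most 1 Scd1 read each, while WT 3 lay within the DKO-severe range. The 3 highest libraries, DKO-severe 2, WT 3 and DKO-severe 1, were also those with the most B cell markers of their group or the most neutrophil markers of all (B cell markers summed to 417, 249.4 and 129.7 CPM in them). DKO-severe 4, with less Scd1, had B cell markers at 155 CPM. No comparison of Scd1 passed (edgeR adjusted p = 0.481, 0.174 and 0.0759 in DKO-severe against WT, DKO-moderate against WT and DKO-severe against DKO-moderate). With the 3 libraries left out together, a setting chosen after seeing the data, Scd1 passed in DKO-severe against WT (edgeR adjusted p = 0.00107) on the reads of DKO-severe 3 and 4. The part of B cells or neutrophils in Scd1 was not tested.

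**Figure D4:**
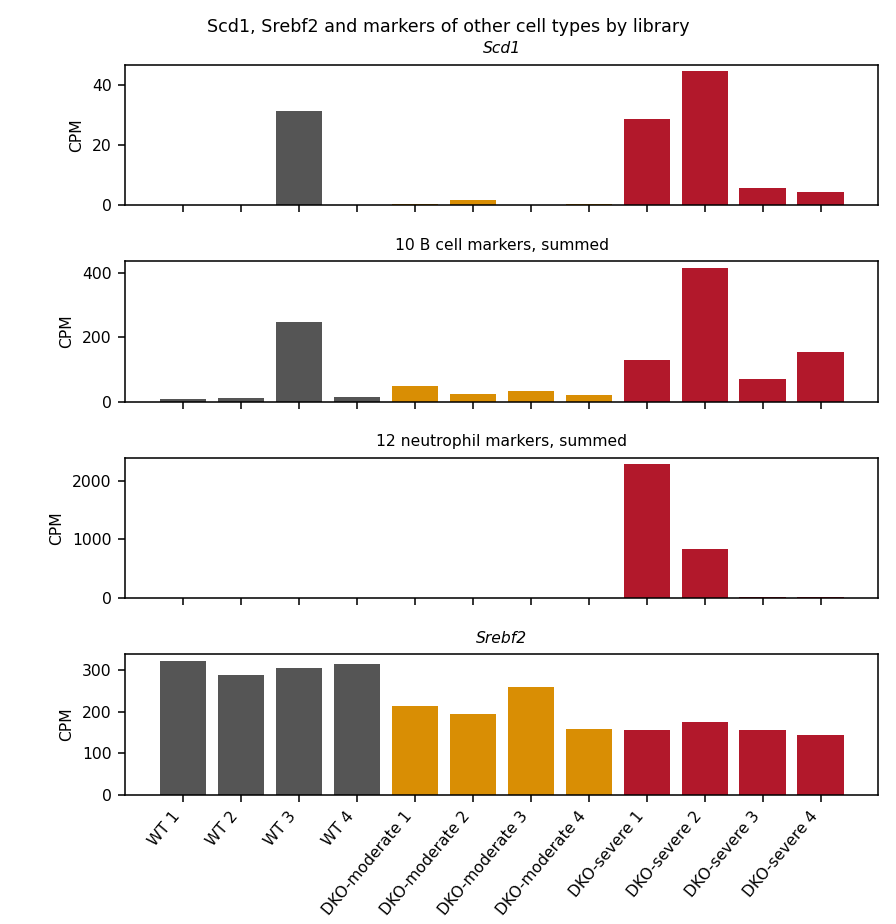
CPM of Scd1, the summed CPM of 10 B cell markers and of 12 neutrophil markers, and CPM of Srebf2 in each library, as bars that start at 0 (grey WT, orange DKO-moderate, red DKO-severe). Scd1 is highest in DKO-severe 2, WT 3 and DKO-severe 1, stands at 5.57 and 4.19 CPM in DKO-severe 3 and 4, and is at most 1.61 CPM in DKO-moderate. Srebf2 is higher in each WT library than in any DKO library.

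Neither efflux pump passed as higher in any comparison. Abca1, which passes cholesterol to apolipoproteins, was at 58.4, 36.4, 88.7 and 58.5 CPM in WT 1 to 4, 48.5, 42.8, 50.4 and 27.5 CPM in DKO-moderate 1 to 4 and 45.9, 51.6, 40.0 and 23.0 CPM in DKO-severe 1 to 4. The groups overlapped and WT alone spanned 36.4 to 88.7 CPM, and no comparison passed (DKO-severe log2 fold change against WT -0.59, 95% interval -1.22 to 0.04, edgeR adjusted p = 0.105). Abcg1, which passes cholesterol to lipoprotein particles, was at 159, 192, 116 and 138 CPM in WT 1 to 4, 124, 126, 116 and 96.2 CPM in DKO-moderate 1 to 4 and 98.7, 103, 119 and 116 CPM in DKO-severe 1 to 4. It was 71.9% of WT in DKO-severe (log2 fold change -0.48 ± 0.14, edgeR adjusted p = 0.0145), with DKO-severe 3 above the lowest WT library, WT 3, and did not pass in DKO-moderate (edgeR adjusted p = 0.0774).

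The second question was how much of this was present in DKO-moderate mice, and the third how the DKO groups differed. In DKO-moderate against WT, 5 of the 34 genes were lower (Hmgcs1, Sqle, Hsd17b7, Srebf2 and Insig1), 4 were higher (Pmvk, Ebp, Scd2 and Elovl1) and 25 did not pass. Among all genes tested 17.1% passed, 4.74% lower and 12.3% higher, so the lower share of the 34 was 14.7% and the higher share 11.8%. In DKO-severe against DKO-moderate, 5 were lower (Mvk, Mvd, Fdps, Tm7sf2 and Srebf2) and 0 were higher, where 20.1% of all genes passed, 10.7% lower and 9.41% higher. With library size alone, higher calls made up 81.2% of all calls in DKO-moderate against WT (72.2% with TMM) and 64.9% in DKO-severe against DKO-moderate (46.9% with TMM, 59.6% with DESeq2 size factors). Over all 34 genes, 7 passed against WT in both DKO groups in the same direction (Hmgcs1, Sqle, Ebp, Srebf2, Insig1, Scd2 and Elovl1), 15 in DKO-severe only, 2 in DKO-moderate only (Pmvk and Hsd17b7) and 10 in no comparison. The direct test between the DKO groups passed for 4 of the 15, Mvk, Mvd, Fdps and Tm7sf2, and did not pass for the other 11. No such split was made for all 16035 genes. Of these, 52.6% were called against WT for DKO-severe mice but 17.1% for DKO-moderate mice, so calls for DKO-severe alone were common outside the 34 too. Whether the split is particular to the 34 genes was not tested. The counts were sensitive to single libraries: without WT 2 or WT 4, 5 genes passed in DKO-moderate against WT, and in DKO-severe against DKO-moderate 1 passed without DKO-moderate 3 or DKO-severe 4, 2 without DKO-severe 1 or DKO-severe 3, and 3 without DKO-moderate 1 or WT 2. Calls over all genes also fell, from 2734 to 1707 and 2094 in DKO-moderate against WT without WT 2 or WT 4. In DKO-severe against DKO-moderate they fell from 3217 to 1815 and 1989 without DKO-moderate 3 or DKO-severe 4.

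Leaving out WT 3, DKO-severe 1 and DKO-severe 2 together, the libraries with the most markers of other cells, 16 of the 34 genes passed in DKO-severe against WT, 12 lower and 4 higher. Srebf2, Insig1, Hmgcs1, Mvk, Mvd, Fdps, Sqle, Scd2, Acaca and Elovl1 were among them, as was Scd1, which did not pass with all libraries. Among all 15497 genes tested in this fit, 6679 passed, 3055 lower and 3624 higher. This setting was chosen after seeing the data. In this smaller fit 7 genes no longer passed, at log2 fold changes of -0.65 for Idi1, -0.41 for Lss, -0.31 for Cyp51, 0.17 for Ebp, 0.18 for Insig2, 0.41 for Stard4 and -0.57 for Elovl5, against -0.76, -0.43, -0.31, 0.19, 0.25, 0.41 and -0.59 with all libraries. The fit had 3 libraries fewer. The proliferation and naive markers moved with the groups in the libraries that stayed, and their part in these differences was not tested.

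The levels of the genes in WT cells were divided by the kilobases of exon of each gene, over all its annotated transcripts. They ran from 62.8 CPM per kilobase for Acly to 1.60 for Scd1. Acly, Elovl5 (52.6) and Srebf2 (42.9) were the highest, and Srebf1 followed at 21.5. Of the 18 enzymes of the mevalonate and sterol steps, Ebp was highest (17 CPM per kilobase), ahead of Hmgcs1 (14.4), and Lss lowest (1.996). Lss had 21.5 CPM over 10787 bases of exon, so this order depends on the annotated lengths.

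Other genes of these pathways were taken from 7 lists, 85 genes of which 82 were tested. In DKO-severe against WT, 29 of the 82 (35.4%) were higher, 22 (26.8%) were lower and 31 did not pass, with a median log2 fold change of 0.18. Of all genes tested 26.6% were higher and 25.9% lower, so the lower share was near that of all genes, and the counts of each list below are descriptions to be read against these shares. Of the 12 genes of the prenylation, dolichol and ubiquinone branch, which draws on the same isoprenoids, 5 were lower and 1 higher. Fntb, the beta subunit of farnesyltransferase, fell most, from 41.5 ± 1.48 CPM in WT to 29.1 ± 5.29 CPM in DKO-moderate and 14.6 ± 2.24 CPM in DKO-severe (SD, n = 4). It was 35.1% of WT in DKO-severe (edgeR adjusted p = 1.15e-05) and 70.03% in DKO-moderate (edgeR adjusted p = 0.0254). Coq2, the prenyltransferase of ubiquinone synthesis, was 66.5% of WT in DKO-severe (edgeR adjusted p = 0.000892). Of 8 genes of SREBP activation and sterol-regulated degradation, 3 were higher and 3 lower. Erlin1, of the membrane complex that restrains SREBP, was 1.997-fold higher (edgeR adjusted p = 0.000603), and Paqr3, which tethers SCAP to the Golgi, 2.29-fold higher at a level of only 1.52 to 2.30 CPM (edgeR adjusted p = 0.0074).

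Among 13 genes of sterol transport, esterification and oxysterols, 3 were higher and 3 lower. Npc2, which hands lysosomal cholesterol to its exporter, fell from 549 ± 27.2 CPM in WT to 188 ± 21.6 CPM in DKO-severe (34.3% of WT, edgeR adjusted p = 1.22e-05). Lipa, the lysosomal lipase that frees that cholesterol, was 54.8% of WT (edgeR adjusted p = 4.47e-05). Of 6 genes of the liver X receptors, 3 were lower and 1 higher. Mylip, a liver X receptor target that degrades lipoprotein receptors, was 24.8% of WT in DKO-severe (edgeR adjusted p = 3.37e-05) and 52.4% in DKO-moderate (edgeR adjusted p = 0.0143). Nr1h3, which encodes the receptor common in macrophages, was 2.69-fold higher (edgeR adjusted p = 0.00293) at 3.06 to 5.72 CPM, and the 11 monocyte and macrophage markers summed to 88.1 to 413 CPM in the same libraries against 5.83 to 221 CPM in WT. Their part in Nr1h3 was not tested.

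Of 16 tested genes of fatty acid supply, elongation and desaturation, 6 were higher and 4 lower. Fads2, the first desaturase of polyunsaturated fatty acids, had 0 to 5 reads in the WT libraries, 19 to 143 in DKO-moderate and 92 to 671 in DKO-severe, with no overlap against WT (log2 fold change 6.79 ± 0.92, edgeR adjusted p = 9.7e-05). Me1, cytosolic malic enzyme, had no read in WT and 39 reads in DKO-severe, 27 of them in DKO-severe 2 and none in DKO-severe 3. It passed as higher in DKO-severe, with overlapping libraries (log2 fold change 6.43, 95% interval 2.14 to 10.7, edgeR adjusted p = 0.0187). With no WT read, the size of this change is uncertain. The call was lost without WT 3, DKO-severe 1 and DKO-severe 2. Of 13 genes of fatty acid activation and glycerolipid synthesis, 7 were higher and 2 lower. Acsl3, an acyl-CoA synthetase, was 25.7% of WT in DKO-severe (edgeR adjusted p = 1.52e-05) and 53.4% in DKO-moderate (edgeR adjusted p = 0.0075), and Dgat2, which makes triglyceride, was 4.35-fold higher with overlapping libraries (edgeR adjusted p = 0.0493), also lost without those 3 libraries. Of 14 genes of fatty acid oxidation, 8 were higher and 2 lower: Hadh, a dehydrogenase of the cycle, was 2.08-fold higher (edgeR adjusted p = 0.00019) and Acaa2, its thiolase, 52.4% of WT (edgeR adjusted p = 0.000415).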

How the data were processed

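Libraries were sequenced and processed by the authors, who deposited 1 table of raw read counts per gene for each of the 12 samples. Reads were aligned to mm10 with STAR 2.7.11, keeping those with a single position, and counted with HTSeq in its reverse-stranded mode, so reads of opposite-strand genes are counted apart. The annotation used is not given in the sources used here. Rows that name no gene held 18.53% to 23.73% of the reads of a library and were left out. Genes with at least 10 reads summed over a condition in at least 1 condition, 16035 in all, were tested by edgeR 4.0.16 (R 4.3.3), with TMM normalization and the quasi-likelihood test in 1 fit of all 12 libraries, and p-values were adjusted by Benjamini-Hochberg over all genes tested. All p-values measure the spread between libraries. The script was tested on simulated data.

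The 34 genes and all lists were chosen with earlier results of these data known. Every library's value is given for the 3 genes of each role with the largest DKO-severe change against WT in size (log2), for all 6 genes of SREBP control and for both efflux pumps, and 2 genes are named from each other list by the same measure among those that passed. In all, 4 symbols of these lists were matched by older names, and Elovl2, Elovl3 and Acsl6 did not pass the filter. Coordinates, exon lengths and overlaps are from GENCODE M21 (GRCm38). Alternatives were DESeq2 1.42.0, limma 3.58.1 (voom), other scalings and filters, a replicate block, terms for Y-linked or neutrophil and B cell genes, stricter thresholds and leaving out libraries. Promoter windows were not used here for Fdps, Fdft1, Sqle, Stard4, Scd1, Scd2 and Abcg1.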

Additional observations from a re-analysis of the deposited data

Results flagged for a closer look

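Of 102 groups of 4 libraries, 1 for each gene and condition, 5 held a library farther from the others than Dixon's 95% critical value for 4 values allows, and chance gives about 1 in 20. Hmgcs1 was at 43.32 CPM in DKO-severe 2 and at 35.9 to 37.0 CPM in the other DKO-severe libraries. Acly was at 455.0 CPM in DKO-severe 3 and at 287.7 to 307.1 CPM in the others of its group. Fasn was at 191.2 CPM in WT 2 and at 211.2 to 213.6 CPM in the other WT libraries. Scd1 was at 31.28 CPM in WT 3 and at 0 to 0.0323 CPM in the other WT libraries, and at 1.608 CPM in DKO-moderate 2 against 0.174 to 0.239 CPM in the other DKO-moderate libraries.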

How the results depend on the processing

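All 12 libraries were compared by number. Deviations from the group means of same-numbered libraries had r of -0.272 to 0.208 (median -0.0342, 12 pairs), against -0.318 to 0.303 (median 0.013, 36 pairs) for different numbers, so the numbers were not taken as pairs. With a replicate block, 20 of the 34 genes passed in DKO-severe against WT, 5 in DKO-moderate against WT and 2 in DKO-severe against DKO-moderate, and 10 other pathway genes in DKO-moderate against WT. Over all 16035 genes, 7794, 2201 and 2321 passed in these 3 comparisons with the block, against 8428, 2734 and 3217 in the fit reported. In DKO-severe against WT, Srebf2, Insig1, Mvk, Mvd, Fdps, Sqle, Acaca and Scd2 kept their call under each of the 23 alternative fits, at the same threshold. At a log2 fold change of 1 or more in size, only Mvd passed. With terms for neutrophil and B cell genes, 2885 of all 16035 genes passed in DKO-severe against WT, against 8428 in the fit reported. Several of the 34 that no longer passed had log2 fold changes near those reported or larger (Hmgcs1 -0.742, Acat2 -0.479, Cyp51 -0.291, Sc5d -0.443, Ebp 0.207 and Stard4 0.49). Others had smaller ones (Elovl1 0.482, Tm7sf2 -0.481, Elovl5 -0.403, Lss -0.335, Insig2 0.188, Idi1 -0.368, Scap -0.195 and Abcg1 -0.282). The count of 22 of the 34 genes in DKO-severe against WT became 8 with these terms, 13 at an adjusted p under 0.01 and 1 at a log2 fold change of 1 or more in size. The count of 9 in DKO-moderate against WT became 5, 4 and 1 under the same settings, and 5 to 8 without 1 library. The count of 5 in DKO-severe against DKO-moderate became 0, 1 and 0, 8 with DESeq2, 12 with limma voom, 3 with DESeq2 size factors, with library size alone or with only the libraries of both groups, 2 without WT 3, DKO-severe 1 and DKO-severe 2, and 1 to 6 without 1 library. Over all 16035 genes, the 3217 calls of this comparison moved too. They became 171 with the cell type terms, 4151 with DESeq2, 6126 with limma voom, 3060 with DESeq2 size factors and 2907 with library size alone. In DKO-moderate against WT, the 2734 calls over all genes became 2152 with the cell type terms. The 51 other pathway genes in DKO-severe against WT became 19 with the cell type terms and 16 at the fold limit, the 16 in DKO-moderate against WT 10, 5 at the stricter p and 2 at the fold limit (9 to 16 without 1 library), and the 27 in DKO-severe against DKO-moderate 0, 11 and 5 (17 to 32 without 1 library). Log2 fold changes whose sign turned did not pass in the fit reported, except that of Dgat2. With library size alone, the signs turned for Acat2 0.052 in DKO-moderate against WT, Ggps1 0.067, Fdft1 0.14, Nsdhl 0.143, Dhcr7 0.117 and Srebf1 0.039 in DKO-severe against WT, Cyp51 0.064, Ebp 0.03, Dhcr7 0.012, Abca1 0.039 and Abcg1 0.024 in DKO-severe against DKO-moderate. With terms for neutrophil and B cell genes, the signs turned for Acat2 0.007 and Scd1 1.379 in DKO-moderate against WT, Fdft1 0.055 and Dgat2 -1.413 in DKO-severe against WT, Insig2 -0.008 and Abcg1 0.125 in DKO-severe against DKO-moderate. Without WT 3, DKO-severe 1 and DKO-severe 2, the signs turned for Acat2 0.026 and Scd1 4.586 in DKO-moderate against WT, Insig2 -0.022, Fasn -0.031 and Abcg1 0.026 in DKO-severe against DKO-moderate. With limma voom, the signs turned for Pmvk 0.444, Insig2 -0.001 and Fasn -0.059 in DKO-severe against DKO-moderate, Scd1 1.607 and Elovl5 0.057 in DKO-moderate against WT. With a term for Y-linked genes, 22 of the 34 genes passed in DKO-severe against WT, 6 in DKO-moderate against WT and 5 in DKO-severe against DKO-moderate. Over all 16035 genes, 8362, 2222 and 3185 passed with it. With that term, the sign turned for Pmvk 0.068 in DKO-severe against DKO-moderate. With DESeq2, the signs turned for Fdft1 0.039, Nsdhl 0.044 and Dhcr7 0.015 in DKO-severe against WT, Cyp51 0.032 and Abca1 0.002 in DKO-severe against DKO-moderate. With DESeq2 size factors, the signs turned for Fdft1 0.039, Nsdhl 0.043 and Dhcr7 0.015 in DKO-severe against WT, Cyp51 0.032 and Abca1 0.001 in DKO-severe against DKO-moderate. With only the libraries of both groups compared, the signs turned for Fdft1 0.007 and Nsdhl 0.012 in DKO-severe against WT. With 10 or more reads required in each library of a group, the signs turned for Cyp51 0.007 in DKO-severe against DKO-moderate, Nsdhl 0.002 in DKO-severe against WT. With a replicate block, the signs turned for Acly -0.01 in DKO-severe against WT. Leaving out 1 library gave -0.129 to 0.026 for Acat2, -0.003 to 0.083 for Dhcr7 and -5.213 to 4.566 for Scd1 in DKO-moderate against WT. In DKO-severe against WT it gave -0.082 to 0.022 for Fdft1, -0.135 to 0.071 for Nsdhl, -0.133 to 0.111 for Acly and -0.044 to 0.22 for Elovl6. In DKO-severe against DKO-moderate it gave -0.445 to 0.346 for Pmvk, -0.08 to 0.029 for Cyp51, -0.007 to 0.278 for Hsd17b7, -0.013 to 0.114 for Srebf1, -0.098 to 0.166 for Elovl6 and -0.197 to 0.159 for Abca1. The causes were not tested. Me1 had no read in WT, and Scd1 had at most 1 read in each WT library except WT 3, which had 1088. Their fold changes against WT are thus uncertain.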

Other observations

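The genes whose log2 CPM ran most like that of 3 members over the 12 libraries, among 10510 genes whose mean reached 5 CPM in some group, are given as a description. The libraries share their conditions, so many genes that differ between groups run alike. For Srebf2 they were Map3k14 (Pearson r = 0.99), Smurf1 (r = 0.988) and D19Wsu162e (r = 0.985). Insig1 ran most like Mios (r = 0.956), Hps3 (r = 0.952) and Rab33b (r = 0.951), and Sqle most like Lonp1 (r = 0.952), Hmgcs1 (r = 0.946) and Rffl (r = 0.944).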
